A study of Mus musculus with 9 samples.

Results

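Mitochondrial ribosomal protein genes, the nuclear genes for the protein subunits of the mitochondrial ribosome, were followed here across mouse CD8+ T cells given interleukin-15 (IL-15) or interleukin-2 (IL-2). They were taken as every gene symbol made of Mrpl or Mrps, a number and at most 1 closing letter a, b or c. This gave 75 genes of the 20418 gene symbols in the count files, 46 named Mrpl and 29 named Mrps. The 75 genes had 80 RefSeq transcripts, and the transcript with the highest mean count stood for each gene. All 75 passed the filter on low counts and were tested among 13479 genes, and only Mrps18c had fewer than 10 reads in a library.

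The mitochondrial ribosome (mitoribosome) translates the proteins that mitochondrial DNA still encodes, all of them parts of the respiratory chain and the ATP synthase. Its large subunit forms the peptide bonds and holds the exit tunnel, and its small subunit binds and decodes the messenger RNA. The ribosomal RNAs are made inside the organelle, while every ribosomal protein is encoded in the nucleus, translated in the cytosol and imported. T cells that leave rest and grow are known to enlarge their mitochondria.

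Splenic CD8+ T cells of female C57BL/6 mice, 6 weeks of age, were used. Of the 9 libraries, 8 came from treated cells. They combine 1 cytokine (IL-15 or IL-2), 1 dose (500 nM or 1 nM) and 1 time (24 h or 4 h), and the other library came from untreated cells. Each library held pooled RNA of 3 samples with the same treatment, so n below counts libraries, not animals. Both cytokines share receptor chains and signal through STAT5, and the study asks how they come to act differently. How long the untreated cells were cultured is not given in the sources used here, so longer cytokine exposure and longer culture cannot be told apart.

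Depth ran from 27158143 to 48799962 counts per library. The mitoribosomal genes took 0.435% to 0.745% of them. Levels across libraries are given in read counts normalised to library size with the trimmed mean of M-values, TMM (CPM), and levels between genes in RPKM, which divides by exon length. T cell markers summed to between 2771 and 4600 CPM in the treated libraries and 4453 CPM in the untreated one. At 24 h they summed to 3906 CPM (IL-15) and 3562 CPM (IL-2) at 500 nM, against 4546 and 4600 CPM at 1 nM. Single T cell markers went both ways. Cd8a (984 and 896 CPM, against 644 and 662 CPM) and Thy1 (407 and 382 CPM, against 269 and 269 CPM) were higher at 500 nM. Cd8b1 (1160 and 1057 CPM, against 1841 and 1961 CPM), Cd3d, Cd3e, Cd3g and Cd5 were lower, and Lck overlapped. The 3 CD4 T cell markers summed to 24.4 and 17.3 CPM at 500 nM, against 18.2 and 26.5 CPM at 1 nM, and overlapped. Summed markers of cells other than T cells moved with dose at 24 h. The 8 B cell markers summed to 231 CPM (IL-15) and 189 CPM (IL-2) at 500 nM, against 650 and 657 CPM at 1 nM. The 7 myeloid markers summed to 19.0 CPM (IL-15) and 27.6 CPM (IL-2) at 500 nM, against 363 and 268 CPM at 1 nM. The 4 NK cell markers summed to 18.03 and 15.1 CPM at 500 nM, against 80.7 and 66.6 CPM at 1 nM. Most of that sum was Tyrobp (5.99 and 4.13 CPM, against 41.6 and 34.3 CPM) and Fcer1g (10.8 and 10.3 CPM, against 35.8 and 30.7 CPM). Klrb1c was lower at 500 nM too, while Ncr1 overlapped (0.593 and 0.142 CPM, against 0.176 and 0.496 CPM). The 4 erythroid markers summed to 4.18 and 5.46 CPM, against 26.4 and 33.5 CPM. The 5 dendritic cell markers summed to 14.1 and 20.2 CPM, against 29.2 and 27.1 CPM. Among them Itgax, Flt3 and Siglech were lower at 500 nM, but Batf3 was higher (5.75 and 13.4 CPM, against 4.98 and 4.70 CPM). None of these markers was at 0 in every library, and their part in the results below was not tested. In bulk RNA, fewer cells of a type and less RNA per cell cannot be told apart.

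The 75 genes were expressed at very different levels. Mean RPKM over the 9 libraries ran from 0.925 to 164 with a median of 33.8, against a median of 3.91 RPKM for all genes tested. The highest were Mrpl12 (164 RPKM), a protein of the stalk that recruits translation factors, then Mrpl52 (137 RPKM) and Mrpl30 (128 RPKM), both in the large subunit. The lowest were Mrpl50 (1.76 RPKM), Mrpl1 (1.11 RPKM) and Mrps18c (0.925 RPKM). The genes lie on 17 chromosomes, with the most, 10, on chromosome 11 and 8 on chromosome 17. Between a gene's highest and lowest library the level differed by a median of 2.48-fold, from 1.24-fold for Mrpl53 to 5.37-fold for Mrps28. Mrps18c, at between 1 and 49 reads per library, spread further (51.5-fold).

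**Figure D1:**
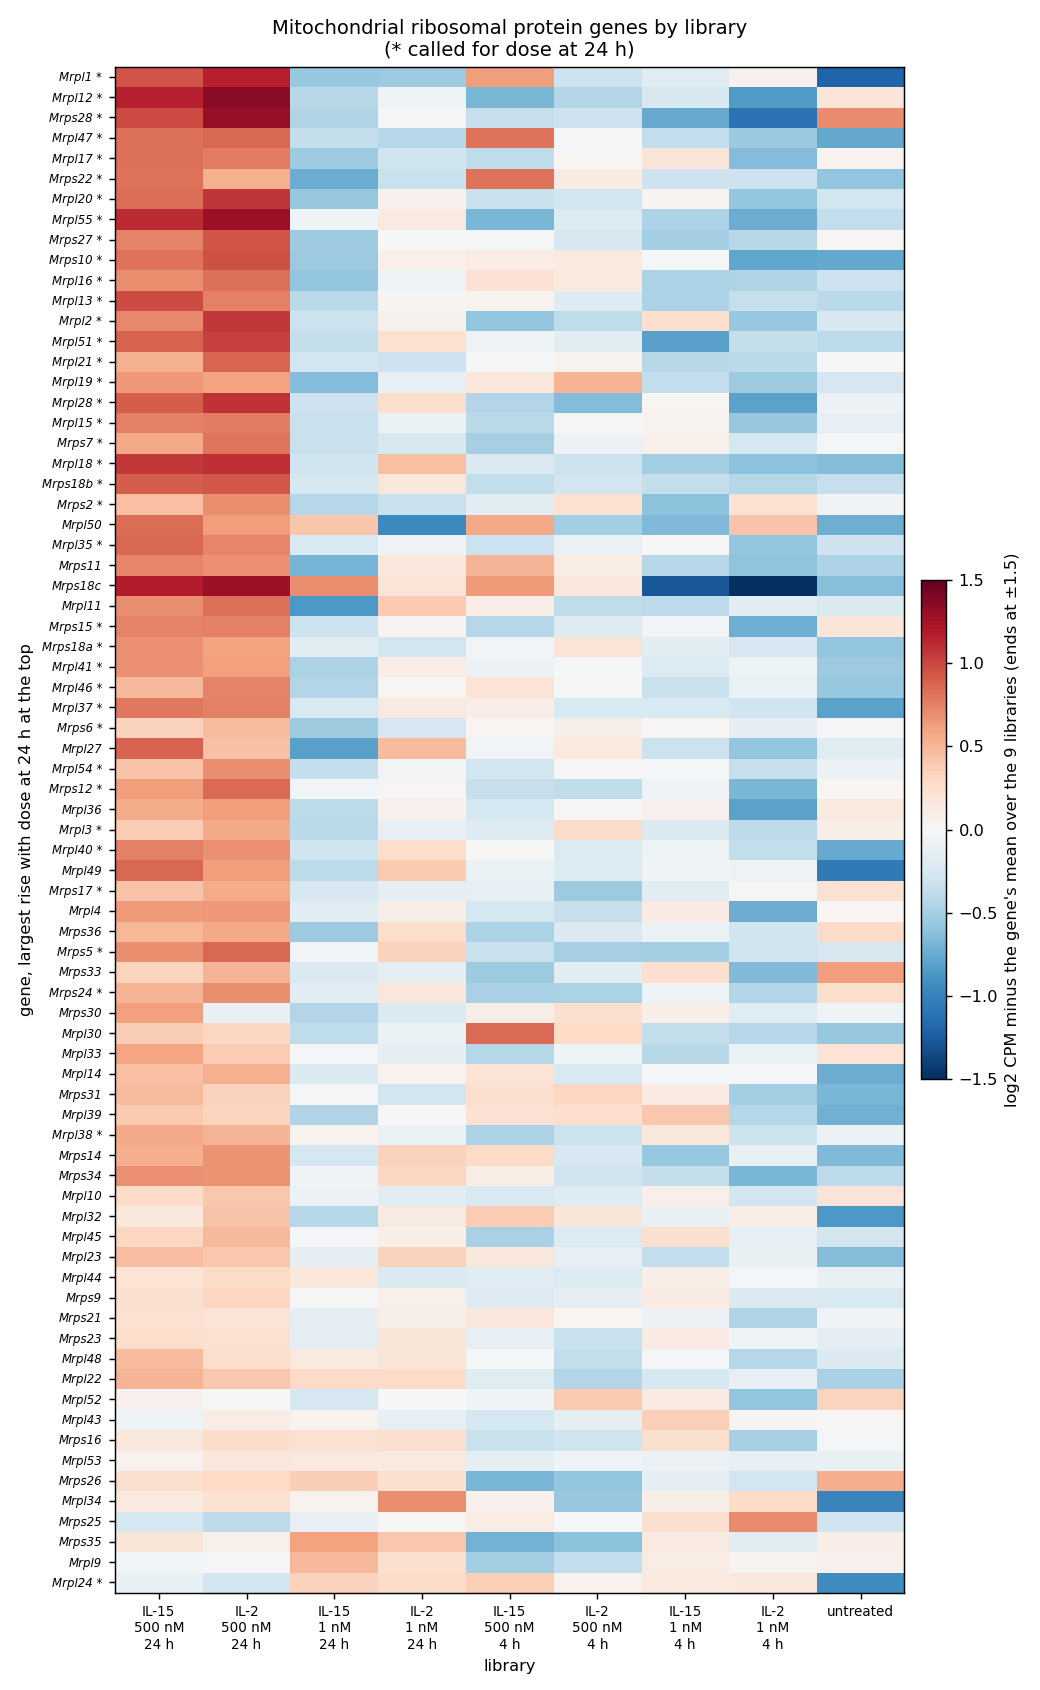
Log2 CPM of each of the 75 genes minus its own mean over the 9 libraries, one column per library and one row per gene, ordered by the dose effect at 24 h, on a colour scale centred on 0. The 2 columns at 500 nM for 24 h are red in most rows, and an asterisk marks the 38 genes called for dose at 24 h.

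The DNA just upstream of 4 genes on which results below turn is shown first. They are Mrpl12, Mrpl2 and Mrpl20, whose dose effect differed between the times, and Mrpl24, the gene that fell. Mrps7 had a dose effect that differed between the times as well and is not shown. The windows are RefSeq sequences of build GRCm38.p6, all on the plus strand and read 5′ to 3′, of at most 250 bases before the gene's start. Capitals mark a match to any of 4 motifs searched on both strands: the NRF1 core CGCATGCG, the ETS core CCGGAAG, the E-box CACGTG and the YY1 core AAGATGGC.
Mrpl12, chr11:120484387-120484612: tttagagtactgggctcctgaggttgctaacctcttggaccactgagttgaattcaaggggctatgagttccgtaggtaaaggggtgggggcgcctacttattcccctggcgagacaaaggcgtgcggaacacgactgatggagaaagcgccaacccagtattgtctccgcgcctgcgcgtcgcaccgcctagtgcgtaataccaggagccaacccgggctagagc
Mrpl2, chr17:46645971-46646220: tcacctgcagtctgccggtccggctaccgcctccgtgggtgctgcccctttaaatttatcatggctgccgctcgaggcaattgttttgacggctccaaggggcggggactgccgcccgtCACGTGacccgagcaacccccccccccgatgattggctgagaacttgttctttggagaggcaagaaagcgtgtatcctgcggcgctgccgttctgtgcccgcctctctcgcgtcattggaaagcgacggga
Mrpl20, chr4:155802628-155802877: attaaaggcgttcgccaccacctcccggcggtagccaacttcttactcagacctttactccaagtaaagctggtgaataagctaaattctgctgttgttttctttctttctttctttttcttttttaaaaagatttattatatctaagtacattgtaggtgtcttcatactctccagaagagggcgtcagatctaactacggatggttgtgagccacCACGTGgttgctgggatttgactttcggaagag
Mrpl24, chr3:87919294-87919505: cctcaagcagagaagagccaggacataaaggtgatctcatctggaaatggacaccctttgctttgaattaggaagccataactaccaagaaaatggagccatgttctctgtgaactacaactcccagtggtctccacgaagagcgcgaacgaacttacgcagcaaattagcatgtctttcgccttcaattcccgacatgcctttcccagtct

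An E-box, the site that Myc with its partner Max binds, lay in the windows of Mrpl2 and Mrpl20, opening 131 and 33 bases before the start. The windows of Mrpl12 and Mrpl24 held none of the 4 motifs. RefSeq windows were found for 66 of the 75 genes, and among these the E-box was in 7.58%, against 9.73% of the windows of 9226 tested genes. The ETS core was in 25.8% of the mitoribosomal windows, against 14.8% of all, the NRF1 core in 10.6%, against 3.48%, and the YY1 core in 6.06%, against 2.28%. At least 1 of the 4 was found in 28 of the 66 genes (42.4%), against 26.9% of the tested genes. Among the 31 windowed genes that rose with dose at 24 h, 7 held the ETS core, 3 the E-box, 2 the NRF1 core and 1 the YY1 core, and among the other 35 windowed genes, 10, 2, 5 and 3. A match describes the letters and shows no binding.

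The main change was a rise of mitoribosomal transcripts at 500 nM for 24 h. Summed over the 75 genes, the level was 7183 CPM (IL-15) and 7588 CPM (IL-2) at 500 nM for 24 h, against 4558 CPM (IL-15) and 5215 CPM (IL-2) at 1 nM for 24 h. It was 4512 CPM (IL-15) and 4600 CPM (IL-2) at 500 nM for 4 h, against 4958 CPM (IL-15) and 4105 CPM (IL-2) at 1 nM for 4 h. The untreated library stood at 4673 CPM. The 2 libraries at 500 nM for 24 h stood above all others, which lay between 4105 and 5215 CPM. For 58 of the 75 genes (77.3%) these were the 2 highest of the 9 libraries, against 18.6% of all genes tested.

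At 24 h, 500 nM against 1 nM, 37 of the 75 genes rose and 1 fell at an adjusted p below 0.05 (edgeR quasi-likelihood test, Benjamini-Hochberg over all genes tested), where 15.6% of all genes tested rose and 15.6% fell. The median log2 difference was 0.74 over the 75 genes and -0.04 over all genes tested. Both 500 nM libraries lay above both 1 nM libraries for 65 genes and below for 4, against 34.1% and 35.4% of all genes tested. Genes with higher levels were called more often, so the count was also taken among genes with a mean of at least 10 RPKM, a comparison added after the data were seen. There 35 of 67 mitoribosomal genes rose and 1 fell, against 29.2% and 20.6% of all such genes. The number called rests on the few libraries of this contrast. It was 12 without the IL-2 library at 500 nM for 24 h, 15 without the IL-15 library at 500 nM for 24 h and 13 without the IL-15 library at 1 nM for 24 h, while the median difference stayed between 0.60 and 0.89.

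Both subunits took part. Of the 46 Mrpl genes 23 rose and 1 fell, and of the 29 Mrps genes 14 rose. Large subunit proteins with a counterpart in bacteria rose in 16 of 30 genes, with a median of 0.93, and those found only in mitochondria in 8 of 18, with a median of 0.66. Small subunit proteins with a bacterial counterpart rose in 11 of 17 genes, with a median of 0.80, and those found only in mitochondria in 2 of 9, with a median of 0.54. These classes were not tested against each other. Mrps30 and Mrps18a, which sit in the large subunit despite their names, are counted there. Mrps18a is classed as found only in mitochondria and Mrps18b as having a bacterial counterpart, although both are relatives of bacterial S18. Mrps36, now known as a subunit of the alpha-ketoglutarate dehydrogenase complex, is in no class. Mrps36 was at 17.1 CPM (IL-15) and 17.95 CPM (IL-2) at 500 nM, against 8.23 and 14.6 CPM at 1 nM, and was not called (log2 difference 0.65 ± 0.32 SE, edgeR adjusted p = 0.15).

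Mrpl12, the stalk protein that docks translation factors, had the smallest adjusted p of the 75 genes. It was at 437 CPM (IL-15) and 499 CPM (IL-2) at 500 nM for 24 h, against 146 CPM (IL-15) and 187 CPM (IL-2) at 1 nM for 24 h. The remaining libraries were at 121 CPM (IL-15) and 144 CPM (IL-2) at 500 nM for 4 h, 166 CPM (IL-15) and 108 CPM (IL-2) at 1 nM for 4 h, and 220 CPM untreated. The 500 nM libraries of 24 h thus stood apart from the other 7, and the log2 difference was 1.50 ± 0.23 (SE, 2 libraries against 2, edgeR adjusted p = 0.0005). Mrpl10, which anchors Mrpl12 to the ribosome, was at 136 and 148 CPM at 500 nM, against 106 and 99.2 CPM at 1 nM. The groups did not overlap, but its difference of 0.48 ± 0.19 missed the threshold (edgeR adjusted p = 0.070).

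Mrpl1, of the mobile stalk that helps spent transfer RNA leave, had the largest difference of the 75 genes at 24 h. It was at 9.43 CPM (IL-15) and 11.0 CPM (IL-2) at 500 nM, against 3.25 and 3.31 CPM at 1 nM, with 2.06 CPM untreated (log2 difference 1.65 ± 0.47 SE, edgeR adjusted p = 0.019). It is one of the genes with the lowest levels, and its call was lost when any of these 4 libraries was left out. Mrpl47, also of the large subunit, was at 12.5 and 12.8 CPM at 500 nM, against 5.44 and 5.17 CPM at 1 nM (1.26 ± 0.38, edgeR adjusted p = 0.026), and its call was lost in the same way. Mrpl17 was at 185 and 179 CPM at 500 nM, against 72.5 and 85.3 CPM at 1 nM (1.21 ± 0.26, edgeR adjusted p = 0.0038). The groups of these 3 genes did not overlap, where 34.1% of all genes tested had both 500 nM libraries above both 1 nM libraries. Mrpl41, a large subunit protein that also binds proteins of the Bcl family, was at 81.7 and 77.9 CPM at 500 nM, against 36.5 and 54.7 CPM at 1 nM (0.83 ± 0.21, edgeR adjusted p = 0.011). Mrps30 was at 21.4 and 12.9 CPM at 500 nM, against 10.3 and 12.0 CPM at 1 nM, and was not called (0.60 ± 0.31, edgeR adjusted p = 0.17).

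Of 5 large subunit proteins listed by role as near the exit tunnel, none rose with dose at 24 h and 1 fell. Of all genes tested, 15.6% rose and 15.6% fell. The 5 do not cover every protein of the tunnel, so they do not stand for it as a group. Large subunit proteins outside the 5 rose, Mrpl17 and Mrpl47 among them, as given above. Of Mrpl22, Mrpl23, Mrpl44 and Mrpl45, none was called, with log2 differences between 0.17 for Mrpl22 and 0.37 for Mrpl45 (edgeR adjusted p between 0.18 and 0.67). Mrpl44 was at 147 CPM (IL-15) and 156 CPM (IL-2) at 500 nM, against 142 and 110 CPM at 1 nM, so that the groups lay close together. Mrpl24, which in bacteria sits at the mouth of the tunnel, was the 1 gene that fell. It was at 134 CPM (IL-15) and 119 CPM (IL-2) at 500 nM, against 185 and 176 CPM at 1 nM (-0.51 ± 0.18 SE, edgeR adjusted p = 0.045). Its call was lost with median-of-ratios scaling and without any 1 of these 4 libraries.

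Mrpl24 shares 38.2% of its annotated exon bases with Rrnad1, a gene on the opposite strand that the files list as BC023814, and the use of strand in counting is not given in the sources used here. BC023814 was at 74.1 CPM (IL-15) and 65.0 CPM (IL-2) at 500 nM, against 104 and 96.1 CPM at 1 nM, with a log2 difference of -0.52 ± 0.18 (edgeR adjusted p = 0.043). Reads of the 2 genes cannot be told apart where they overlap. In all, 15 of the 75 genes share at least 10% of their annotated exon bases with another gene, 11 of them on the opposite strand and 4 on the same strand. Shares were taken over a gene's annotated exons, 1557 bases for Mrpl24, while its counted transcript has 949 bases. The share within the counted exons was not measured and may differ. Of genes named here, Mrps25 shares 58.2% with Nr2c2, Mrpl19 39.2% with Gcfc2, Mrpl43 27.5% with Twnk and Mrpl47 13.4% with Actl6a. Gene models not used here overlap 100% of the bases of Mrpl53, 59.1% of Mrps18b, 18.5% of Mrps18c, 18.1% of Mrps30, 15.2% of Mrpl12 and 14.1% of Mrpl10. A share of bases is not a share of reads. Nr2c2 was at 0.451 to 2.91 CPM, where Mrps25 was at 57.4 to 123 CPM. Gcfc2, listed as AW146020, was at 6.03 to 13.9 CPM, where Mrpl19 was at 66.2 to 163 CPM. Actl6a, in contrast, stood above Mrpl47. At 24 h Actl6a was at 145 CPM (IL-15) and 147 CPM (IL-2) at 500 nM, against 79.2 and 104 CPM at 1 nM. Mrpl47 was at 12.5 and 12.8 CPM, against 5.44 and 5.17 CPM. Actl6a rose with dose as well (0.69 ± 0.18, edgeR adjusted p = 0.012), and its part in the counts of Mrpl47 was not tested.

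In the small subunit, Mrps28 rose most. It was at 51.7 CPM (IL-15) and 64.8 CPM (IL-2) at 500 nM for 24 h, against 19.2 and 25.8 CPM at 1 nM for 24 h (log2 difference 1.38 ± 0.25 SE, edgeR adjusted p = 0.0014). The 4 libraries of 4 h lay between 12.1 and 21.1 CPM and the untreated library at 42.7 CPM, so the level at 500 nM for 24 h was the highest but not far above untreated cells. Mrps7, near the path of the messenger RNA, was at 282 and 334 CPM at 500 nM, against 151 and 162 CPM at 1 nM (0.98 ± 0.20, edgeR adjusted p = 0.0032). Mrps12, which monitors codon pairing in the decoding site, was at 159 and 186 CPM at 500 nM, against 101 and 104 CPM at 1 nM (0.76 ± 0.22, edgeR adjusted p = 0.018). Mrps5 and Mrps10, of the body and head of the subunit, rose by 0.63 ± 0.21 and 1.09 ± 0.30 (edgeR adjusted p = 0.042 and 0.016). None of these 4 had overlapping groups. Both 500 nM libraries lay above both 1 nM libraries at 24 h for 34.1% of all genes tested.

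The 3 relatives of bacterial S18 differ in level. Mrps18b was at 121 CPM (IL-15) and 123 CPM (IL-2) at 500 nM, against 54.1 and 72.2 CPM at 1 nM (log2 difference 0.96 ± 0.20 SE, edgeR adjusted p = 0.0028). Mrps18a was at 93.1 and 88.2 CPM at 500 nM, against 51.6 and 47.7 CPM at 1 nM (0.87 ± 0.19, edgeR adjusted p = 0.0046). Both rose. Mrps18c was at 1.27 and 1.39 CPM at 500 nM, against 0.881 and 0.595 CPM at 1 nM and was not called (0.93 ± 1.38, edgeR adjusted p = 0.66). Per length the order was Mrps18a at 47.9 RPKM, Mrps18b at 45.2 RPKM and Mrps18c at 0.925 RPKM.

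The genes that did not follow the rise include some of the most abundant ones. Mrpl52 was at 85.3 CPM (IL-15) and 81.7 CPM (IL-2) at 500 nM, against 68.3 and 81.3 CPM at 1 nM, with 103 CPM untreated. Mrpl43 was at 215 and 244 CPM at 500 nM, against 233 and 207 CPM at 1 nM, with 228 CPM untreated. Neither was called (edgeR adjusted p = 0.68 and 0.84), and the Mrpl43 groups overlapped. Mrpl9, a large subunit protein, and Mrps35, of the small subunit, had differences of -0.40 ± 0.18 and -0.38 ± 0.19 at 24 h (edgeR adjusted p = 0.11 and 0.15). Averaged over both times, where 16.1% of all genes tested rose with dose and 16% fell, these 2 were the only ones of the 75 that fell, by 0.45 and 0.51 on the log2 scale (edgeR adjusted p = 0.015 and 0.011), while 29 rose. The largest of these rises were those of Mrpl47 (1.08), Mrps22 (1.00), Mrps28 (0.98), Mrpl1 (0.96) and Mrpl19 (0.90), with edgeR adjusted p between 0.00057 and 0.042. With main effects alone in the model, 9 rose and none fell for dose. The number called was 13 without the IL-2 and 17 without the IL-15 library at 500 nM for 24 h, 20 without the IL-15 library at 1 nM for 24 h and 19 without the IL-2 library at 1 nM for 4 h.

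**Figure D2:**
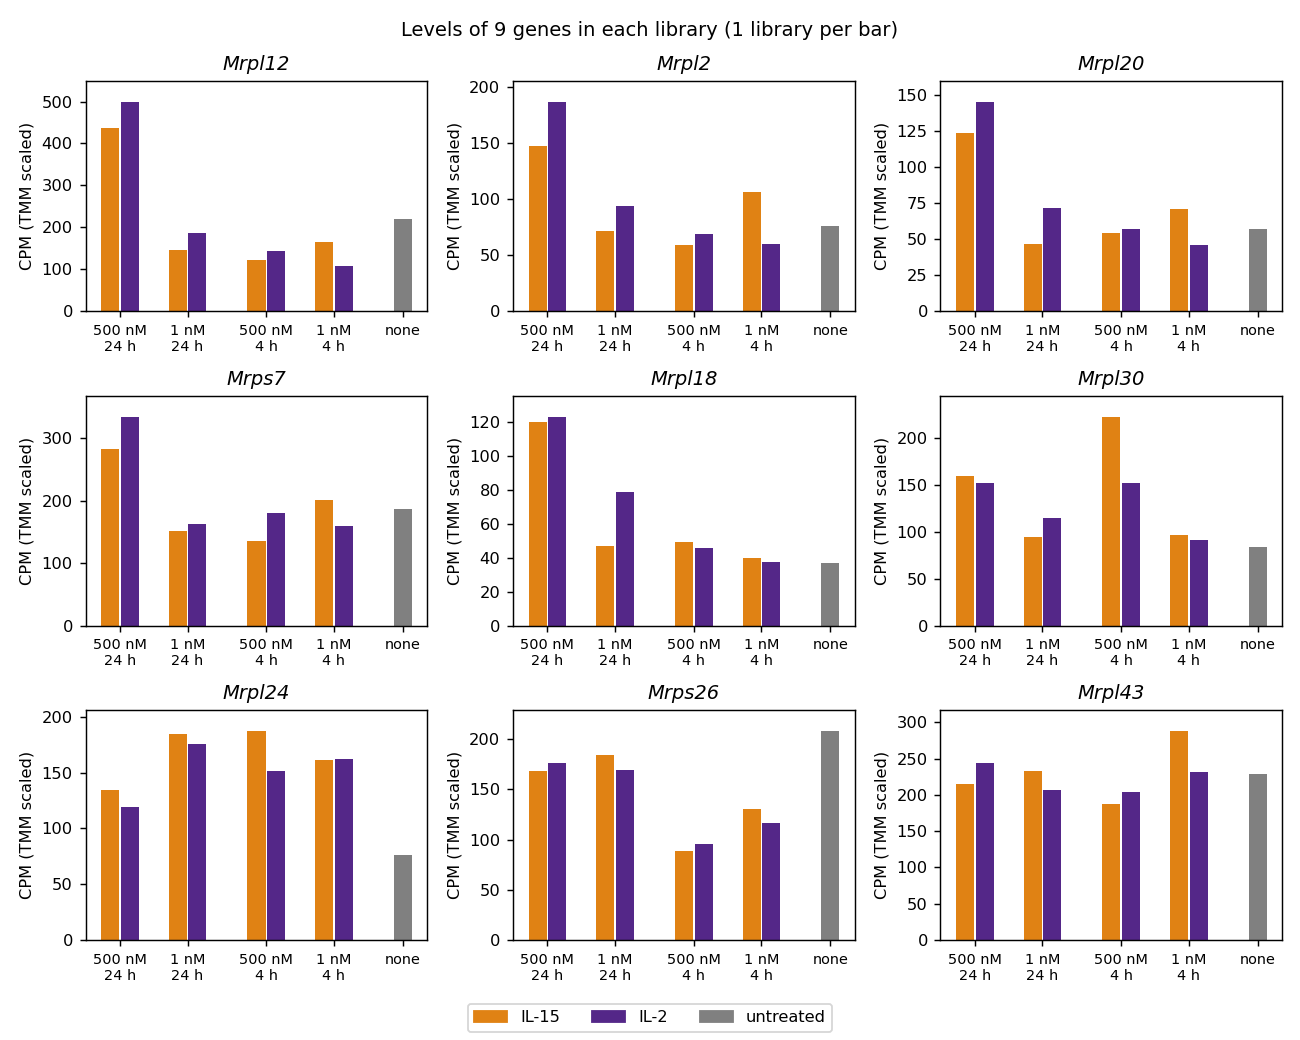
TMM-scaled CPM of 9 mitoribosomal genes in each of the 9 libraries, 1 bar per library, in the order 500 nM then 1 nM at 24 h, 500 nM then 1 nM at 4 h, and untreated. Mrpl12, Mrpl2, Mrpl20, Mrps7 and Mrpl18 are highest at 500 nM for 24 h, Mrpl30 in the IL-15 library at 500 nM for 4 h, Mrpl24 is lowest and Mrps26 highest in untreated cells, and Mrpl43 has no clear order by dose at 24 h.

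At 4 h few genes were called for dose. Of the 75 genes, 2 rose with 500 nM against 1 nM and none fell (edgeR adjusted p below 0.05), where 5.42% of all genes tested rose and 4.63% fell. The median difference was 0.06, and both 500 nM libraries lay above both 1 nM libraries for 24 genes and below for 11, against 24.1% and 25.5% of all genes tested. The 2 called genes were Mrpl30 and Mrpl19, both of the large subunit. Mrpl30 was at 222 CPM (IL-15) and 152 CPM (IL-2) at 500 nM, against 96.4 and 91.5 CPM at 1 nM (log2 difference 0.99 ± 0.21 SE, edgeR adjusted p = 0.0098). Mrpl19 was at 117 and 147 CPM at 500 nM, against 80.3 and 71.7 CPM at 1 nM (0.79 ± 0.21, edgeR adjusted p = 0.029). The groups of both genes stood apart. No gene was called without the IL-15 library at 500 nM for 4 h. Only 1 gene was called without any of the IL-2 libraries at 500 nM for 24 h, 500 nM for 4 h and 1 nM for 4 h or the IL-15 library at 1 nM for 4 h.

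The difference between the dose effects at 24 h and at 4 h was tested itself. It was called for 4 of the 75 genes, all with a larger dose effect at 24 h, where 4.06% of all genes tested were called in that direction and 4.76% in the other. The share of mitoribosomal genes called was thus near that of all genes, while the median difference between the effects was 0.58 over the 75 genes and -0.05 over all genes. The 4 were Mrpl12 (1.56 ± 0.33 SE, edgeR adjusted p = 0.015), Mrpl2 (1.40 ± 0.37, 0.038), Mrpl20 (1.27 ± 0.36, 0.049) and Mrps7 (1.19 ± 0.29, 0.026). Mrpl2, a core protein of the site of peptide bond formation, was at 147 CPM (IL-15) and 187 CPM (IL-2) at 500 nM for 24 h, against 71.5 and 93.4 CPM at 1 nM for 24 h. At 4 h it was at 59.1 and 68.7 CPM at 500 nM, against 106 and 60.1 CPM at 1 nM. Mrpl20, which binds the large ribosomal RNA, was at 123 and 145 CPM at 500 nM for 24 h, against 46.5 and 71.7 CPM at 1 nM for 24 h. At 4 h it was at 54.4 and 56.8 CPM at 500 nM, against 70.8 and 46.1 CPM at 1 nM. In both genes the doses stood apart at 24 h, where 34.1% of all genes tested had both 500 nM libraries above both 1 nM libraries. At 4 h their doses overlapped. These calls depend on single libraries. None of the 75 genes was called without the IL-2 library at 500 nM for 24 h or the IL-15 library at 1 nM for 24 h. Only 1 was called without the IL-15 library at 500 nM for 24 h, at 500 nM for 4 h or at 1 nM for 4 h. Without the IL-2 library at 1 nM for 4 h 15 genes were called, and without that at 1 nM for 24 h 7. DESeq2 called 10 and limma-voom 2.

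**Figure D3:**
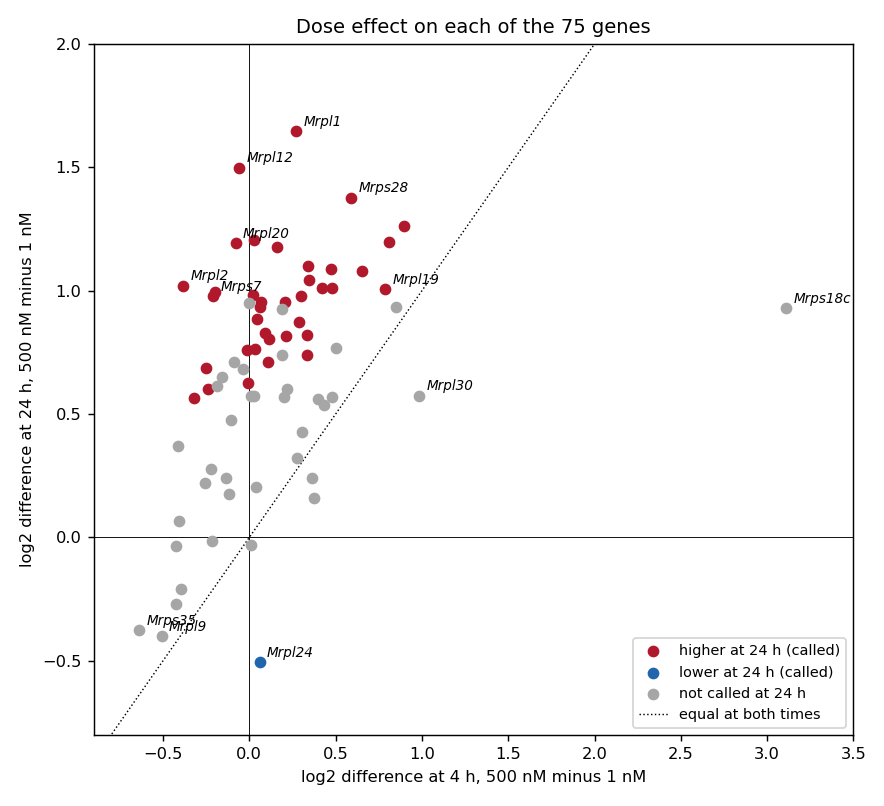
Log2 difference between 500 nM and 1 nM at 24 h (vertical axis) against the same at 4 h (horizontal axis), 1 point per gene, red for genes that rose at 24 h, blue for the 1 that fell and grey for those not called, with a dotted line where both are equal. Most points lie above the dotted line, with differences at 24 h between -0.51 and 1.65 and a median of 0.74, while at 4 h the median is 0.06.

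Against untreated cells the rise was seen at 500 nM for 24 h. There 33 of the 75 genes rose and none fell (edgeR adjusted p below 0.05), where 12.8% of all genes tested rose and 12.3% fell, and the median difference was 0.89. By name, 26 of 46 Mrpl genes and 7 of 29 Mrps genes rose. Among genes with a mean of at least 10 RPKM, 31 of 67 mitoribosomal genes rose, against 22.9% of all such genes. The largest rises were those of Mrpl1 (2.31 ± 0.64 SE, edgeR adjusted p = 0.019), Mrpl49 (1.82 ± 0.36, 0.0031), Mrpl18 (1.73 ± 0.31, 0.0018), Mrps10 (1.65 ± 0.40, 0.0093) and Mrpl47 (1.65 ± 0.51, 0.031). Mrpl18, of the large subunit, was at 120 CPM (IL-15) and 123 CPM (IL-2) at 500 nM for 24 h, against 36.6 CPM untreated. Mrpl49 was at 54.6 and 46.6 CPM at 500 nM for 24 h, against 14.3 CPM untreated. Mrps10 was at 45.5 and 50.1 CPM at 500 nM for 24 h, against 15.2 CPM untreated. In each of these 3 genes both libraries lay above the untreated one, which follows from naming them as the largest called rises. In the untreated library B cell markers had a summed level of 642 CPM, and myeloid markers one of 474 CPM. NK cell markers were at 186 CPM, dendritic cell markers at 107 CPM and erythroid markers at 89.4 CPM there, and all 5 sums were above those at 500 nM for 24 h. Their part was not tested. All comparisons with untreated cells share that 1 library, and 20 of the 75 genes had their lowest level in it. The number of called genes was 12 without the IL-2 library at 500 nM for 24 h and 14 without the IL-15 library of that condition.

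In the other conditions fewer genes were called against untreated cells. At 500 nM for 4 h, 3 genes rose and 3 fell, where 7.92% of all genes tested rose and 8.47% fell. Those that rose were Mrpl30 (1.16 ± 0.27 SE), Mrpl32 (1.16 ± 0.31) and Mrpl24 (1.14 ± 0.23), all of the large subunit (edgeR adjusted p = 0.012, 0.024 and 0.0047). Those that fell were Mrps26 (-1.18 ± 0.21), Mrps28 (-1.04 ± 0.29) and Mrps35 (-0.76 ± 0.22), all of the small subunit (edgeR adjusted p = 0.0022, 0.030 and 0.037). Mrps26 was at 88.9 CPM (IL-15) and 95.3 CPM (IL-2) at 500 nM for 4 h, against 208 CPM untreated, which was its highest level of all libraries. At 1 nM for 4 h, Mrpl24 rose (1.08 ± 0.23, edgeR adjusted p = 0.016) and Mrps28 fell (-1.63 ± 0.29, edgeR adjusted p = 0.0076), where 2.75% of all genes tested rose and 3.55% fell. At 1 nM for 24 h, Mrpl24 alone was called (1.24 ± 0.23, edgeR adjusted p = 0.020), where 0.861% of all genes tested rose and 0.786% fell. Mrpl24 was at 76.2 CPM untreated and at 119 CPM or more in every treated library. BC023814, which shares its exons, was at 48.7 CPM untreated and was higher at 1 nM for 24 h as well (1.03 ± 0.23, edgeR adjusted p = 0.047). These counts move with single libraries. At 500 nM for 4 h, 2 genes were called without the IL-15 library of that condition and 4 or more without any other, with 10 without its IL-2 library or the IL-2 library at 1 nM for 4 h and 9 without the IL-2 library at 1 nM for 24 h or either IL-15 library at 1 nM. At 1 nM for 4 h, none was called without the IL-2 library of that condition, 5 without the IL-15 library at 1 nM for 24 h and 4 without the IL-2 library at 1 nM for 24 h or either library at 500 nM for 4 h. At 1 nM for 24 h, none was called without the IL-2 library of that condition or the IL-15 library at 500 nM for 24 h, 3 without the IL-15 library of that condition and 2 without either library at 500 nM for 4 h.

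Averaged over both doses, 24 h against 4 h, 25 of the 75 genes rose and 1 fell (edgeR adjusted p below 0.05), where 11.7% of all genes tested rose and 10.8% fell. The median difference was 0.38. This is an average, and time was not tested within each dose. Summed over the 75 genes, the level at 500 nM was 7183 CPM (IL-15) and 7588 CPM (IL-2) at 24 h, against 4512 and 4600 CPM at 4 h. At 1 nM it was 4558 and 5215 CPM at 24 h, against 4958 and 4105 CPM at 4 h, so the times overlapped there. The largest rises were those of Mrpl55 (1.13 ± 0.19 SE, edgeR adjusted p = 0.0015), Mrps28 (1.09 ± 0.18, 0.0011), Mrpl12 (1.05 ± 0.16, 0.00084), Mrpl18 (1.01 ± 0.17, 0.0011) and Mrpl28 (0.95 ± 0.20, 0.0047). Mrpl55, a large subunit protein, was at 36.2 CPM (IL-15) and 40.4 CPM (IL-2) at 500 nM for 24 h and at 15.8 and 18.1 CPM at 1 nM for 24 h, against 10.3 and 14.4 CPM at 500 nM for 4 h and 12.0 and 9.89 CPM at 1 nM for 4 h. All 4 libraries of 24 h lay above all 4 of 4 h. Mrps26 and Mrps35 rose with time (0.71 ± 0.12 and 0.65 ± 0.13, edgeR adjusted p = 0.0017 and 0.0043), and Mrps35 fell with dose over both times. The 1 gene that fell was Mrps25, of the small subunit (-0.46 ± 0.14, edgeR adjusted p = 0.035). It was at 63.0 CPM (IL-15) and 57.4 CPM (IL-2) at 500 nM for 24 h and 69.4 and 76.4 CPM at 1 nM for 24 h, against 81.4 and 75.9 CPM at 500 nM for 4 h and 89.3 and 123 CPM at 1 nM for 4 h. Its call was lost in 7 of 15 alternative settings. With main effects alone in the model, 8 of the 75 genes rose with time. The number called was 13 without the IL-2 library at 500 nM for 24 h, at 1 nM for 24 h or at 1 nM for 4 h, and 14 without the IL-15 library at 500 nM for 24 h.

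The cytokine made no difference that the test called. For IL-15 against IL-2 over all 4 matched pairs, 0 of the 75 genes passed in edgeR's quasi-likelihood test, as did 0% of all genes tested in either direction. DESeq2 and limma-voom also called 0 of the 75, and each of these tools had 1 gene at an unadjusted p below 0.05. With edgeR that gene was Mrps2, of the small subunit, with a log2 difference of -0.40 ± 0.15, named here after its value was seen. The median difference over the 75 genes was 0.00 and the range was -0.40 to 0.68, with the upper end at the barely expressed Mrps18c. At 1 nM alone, 0 genes were called, 3 had an unadjusted p below 0.05, and 0% of all genes tested were called higher and 0.0148% lower. At 500 nM alone, 0 genes were called, 0 had an unadjusted p below 0.05, and 0% of all genes tested were called higher and 0.00742% lower. In both, DESeq2 and limma-voom called 0 of the 75 genes. The test has few residual degrees of freedom, so a missing call does not show that the cytokines act alike.

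Within single pairs, which have no replicate and no test, none of the 75 genes was at least 2-fold apart between IL-15 and IL-2 at 500 nM for 24 h. There the log2 ratio of IL-15 to IL-2 had a median of -0.07 over the 75 genes, and 6.22% of all genes tested were at least 2-fold apart. At 500 nM for 4 h the median was -0.03. At 1 nM the pairs leaned opposite ways: at 24 h the median was -0.28, with IL-15 higher in 16 of 75 genes, and at 4 h it was 0.18, with IL-15 higher in 53 of 75. At least 2-fold apart were 3 genes at 1 nM for 24 h, 1 at 500 nM for 4 h and 1 at 1 nM for 4 h, against 13.8%, 11.5% and 12% of all genes tested. Mrpl11, a large subunit protein, was at 10.8 CPM with IL-15 and 26.0 CPM with IL-2 at 1 nM for 24 h. Mrpl27 was at 7.25 CPM with IL-15 and 17.9 CPM with IL-2 in the same pair. Mrpl50, one of the lowest genes, was the only one of these at least 2-fold apart in more than 1 pair, and not in 1 direction. It was at 7.20 CPM with IL-15 and 3.36 CPM with IL-2 at 500 nM for 4 h. At 1 nM for 24 h it was at 6.49 CPM with IL-15 and 2.44 CPM with IL-2, while at 1 nM for 4 h it was at 3.02 CPM with IL-15 and 6.52 CPM with IL-2.

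Other genes of mitochondrial translation were called for dose at 24 h as well, where 15.6% of all genes tested rose and 15.6% fell. Of 7 mitoribosome subunits with other names, 4 rose and none fell, namely Ptcd3, Chchd1, Aurkaip1 and Mrp63, with differences between 0.67 and 0.79. Of 12 translation factors, 4 rose and 1 fell. Those that rose were the elongation factors Gfm1 (1.22), Tsfm (1.08) and Tufm (0.99) and the recycling factor Mrrf (1.06), and the one that fell was Gfm2 (-0.93), which also acts in recycling. Tufm was at 491 CPM (IL-15) and 536 CPM (IL-2) at 500 nM, against 251 and 267 CPM at 1 nM, with 410 CPM untreated. Of 17 mitochondrial transfer RNA synthetases, 3 rose, namely Yars2, Sars2 and Tars2, a share (17.6%) near that of all genes tested. Of 18 assembly and RNA modification factors, 4 rose, led by C1qbp (1.65) and Rnmtl1 (1.38), and Nsun4 fell (-0.78). C1qbp, a matrix protein that binds mitochondrial RNA and ribosomes, was at 320 and 345 CPM at 500 nM, against 107 and 105 CPM at 1 nM, with 195 CPM untreated. Calls in this paragraph are by edgeR's quasi-likelihood test with an adjusted p below 0.05.

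Of 13 genes for the upkeep and transcription of mitochondrial DNA, 4 rose and 1 fell at 24 h, where 15.6% of all genes tested rose and 15.6% fell. Pnpt1 (1.59) and Supv3l1 (1.24), which degrade mitochondrial RNA together, led the rises, and Polg2, a polymerase subunit, fell (-0.84). Tfam, the packaging factor of mitochondrial DNA, was at 170 CPM (IL-15) and 145 CPM (IL-2) at 500 nM, against 159 and 171 CPM at 1 nM, and its groups overlapped. Of 10 nuclear regulators, 2 rose, a share (20%) near that of all genes tested. They were Myc (1.36 ± 0.20 SE, edgeR adjusted p = 0.0003) and the coactivator Pprc1 (1.23 ± 0.21, edgeR adjusted p = 0.0009). Myc was at 673 CPM (IL-15) and 778 CPM (IL-2) at 500 nM for 24 h, against 255 and 311 CPM at 1 nM for 24 h. At 4 h Myc was at 1168 and 1091 CPM at 500 nM, against 356 and 287 CPM at 1 nM, so that its dose difference was present at 4 h as well. Nrf1, a transcription factor of nuclear genes for mitochondrial proteins, was at 91.2 and 91.5 CPM at 500 nM for 24 h, against 81.3 and 89.3 CPM at 1 nM for 24 h, and was not called (edgeR adjusted p = 0.78).

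**Figure D4:**
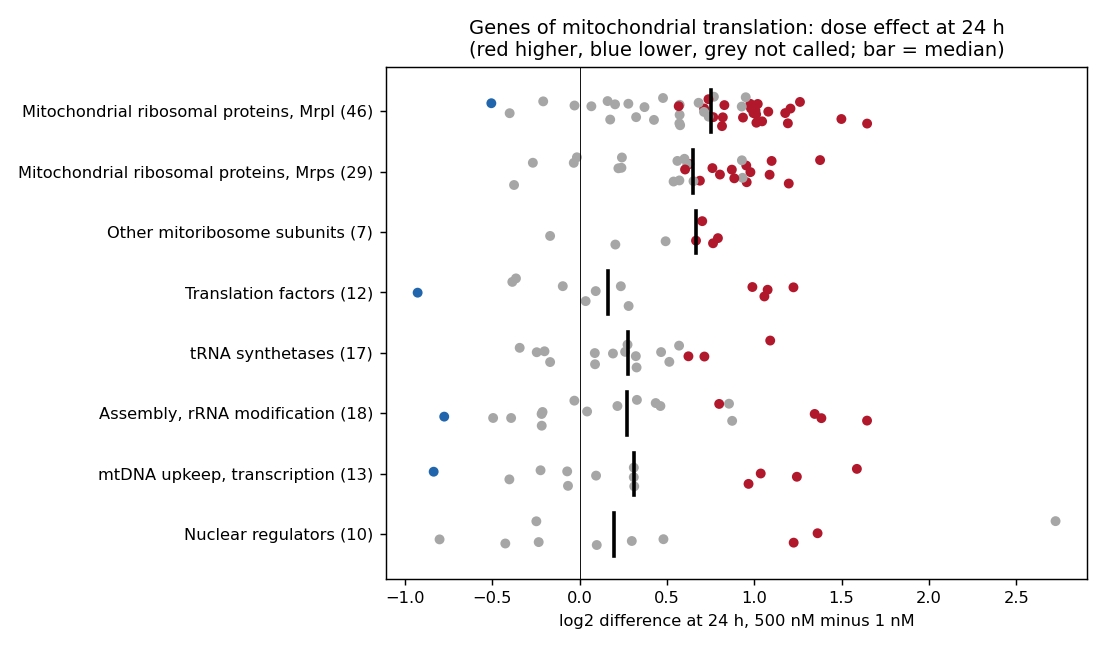
Log2 difference between 500 nM and 1 nM at 24 h for each gene of 8 lists, with the number of tested genes in brackets, red for genes that rose, blue for genes that fell, grey for genes not called and a bar at each list's median. The Mrpl and Mrps genes lie mostly to the right of 0, and the other lists reach to both sides, with single genes such as C1qbp at 1.65.

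Among the ribosomal proteins of the cytosol more genes fell than rose. Of 80 tested cytosolic ribosomal protein genes, a list chosen after the data were seen, 1 rose and 31 fell with dose at 24 h (edgeR adjusted p below 0.05), against 15.6% and 15.6% of all genes tested, and the median difference was -0.48. Against untreated cells at 500 nM for 24 h, 1 rose and 31 fell, against 12.8% and 12.3% of all genes tested, and the median was -0.59. For the mitoribosomal genes the same medians were 0.74 and 0.89. Many cytosolic ribosomal protein genes have near-identical pseudogene copies, and how reads with several matches were counted is not given in the sources used here.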

How the data were processed

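The authors deposited raw read counts per RefSeq transcript with RPKM values, per the file headers, made with CASAVA 1.8, Bowtie 0.12.4 and the mm8 genome, per the submitters' processing notes. Per the labels' protocols, 2.5 ng of RNA went through 12, 9 and 17 cycles of PCR. How strand and reads with several matches were handled is not given in those sources. RPKM served for levels between genes only.

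Counts were tested with edgeR 4.0.16 (R 4.3.3) after filterByExpr (minimum count 10, total 15) and TMM scaling, by quasi-likelihood with legacy deviances. The model held 1 term for untreated cells, 1 for each of the 4 doses and times and 1 for cytokine, leaving 3 residual degrees of freedom, or 2 with the cytokine by dose term used to compare cytokines within a dose. P-values were adjusted by Benjamini-Hochberg over 13479 genes, with a threshold of 0.05, and standard errors are the log2 difference divided by the square root of F. No condition was repeated, so p-values measure the spread between these libraries and assume that the interactions with cytokine left out are small. Scripts were tested on simulated data. A count of 0 would allow up to 3 counts, 0.0595 to 0.113 CPM, and such limits cover counting error only.

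The genes, lists, tests and the model were chosen with earlier results of these data known, and the model calls more genes than main effects alone. Named genes are, per comparison, the 5 largest called rises and falls, the 3 highest and lowest by RPKM, genes at least 2-fold apart between matched cytokines (offset 1, at least 20 counts) and fixed lists by role. Alternatives were DESeq2 1.42.0, limma-voom 3.58.1, median-of-ratios scaling, no filter, the mean over transcripts, main effects alone and each library left out. Promoter windows and exon overlaps used RefSeq and GENCODE M21 on GRCm38.p6, without converting coordinates from mm8. A window was shortened where an annotated transcript opens before the RefSeq start.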

Additional observations from a re-analysis of the deposited data

Results flagged for a closer look

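The effect of dose differed between the times for 4 genes, by the test of the difference itself (edgeR adjusted p below 0.05), where 4.06% of all genes tested were called in that direction and 4.76% in the other, so the share of the 75 genes is near that of all genes. The dose effect at 24 h minus that at 4 h was 1.56 on the log2 scale for Mrpl12, 1.40 for Mrpl2, 1.27 for Mrpl20 and 1.19 for Mrps7. The dose effect of Mrpl12 was 1.50 ± 0.23 (SE) at 24 h and -0.06 ± 0.23 at 4 h, and that of Mrpl2 was 1.02 ± 0.26 at 24 h and -0.38 ± 0.27 at 4 h. That of Mrpl20 was 1.19 ± 0.26 at 24 h and -0.08 ± 0.26 at 4 h, and that of Mrps7 was 0.98 ± 0.20 at 24 h and -0.21 ± 0.20 at 4 h. Of 14 alternatives, Mrpl12 lost its call in 3, Mrps7 in 6, Mrpl2 in 7 and Mrpl20 in 8, and none of the 75 genes was called without the IL-2 library at 500 nM for 24 h or the IL-15 library at 1 nM for 24 h. No condition had enough libraries to test for a single outlying one.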

How the results depend on the processing

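No call of a named gene and no count changed direction under the alternatives. Of 14 alternatives for the dose effect at 24 h, Mrpl12, Mrpl17, Mrpl19, Mrps18b and Mrps28 kept their calls in all, and the IL-2 and IL-15 libraries at 500 nM for 24 h and the IL-15 library at 1 nM for 24 h each took the count of called genes to 15 or fewer when left out. With main effects alone, 9 genes were called for dose and 8 for time. DESeq2 called 10 genes for dose by time, 4 at 1 nM for 4 h and 2 at 1 nM for 24 h against untreated cells, limma-voom called 2 for dose by time, and without the filter 2 were called at 1 nM for 24 h against untreated cells. Leaving out each library gave 13 to 39 called genes for dose, 13 to 32 for time, 0 to 3 for dose at 4 h, 12 to 42 for dose at 24 h and 0 to 15 for dose by time. Against untreated cells it gave 0 to 5 at 1 nM for 4 h, 0 to 3 at 1 nM for 24 h, 2 to 10 at 500 nM for 4 h and 12 to 38 at 500 nM for 24 h, and for the cytokine 0 throughout. A condition with 1 library left is assumed to vary like the others. The cause of these shifts was not tested, beyond the fewer libraries in each. No condition was repeated, so there were no replicates to pair and no replicate block could be added. The model already matches IL-15 and IL-2 libraries of the same dose and time, and sets doses and times against each other within both cytokines.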

Other observations

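Many mitoribosomal genes start close to another gene on the opposite strand. Of the 66 genes with a RefSeq window, 22 (33.3%) start within 1000 bases of a tested gene that runs the other way, against 10.1% of 9226 tested genes. Mrpl46 and Mrps11 form such a pair with each other, so there are 21 pairs in all. In 14 pairs a mitoribosomal gene rose with dose at 24 h (edgeR adjusted p below 0.05), where 15.6% of all genes tested rose and 15.6% fell. The neighbour rose as well in 4 of them, Tcp1 beside Mrpl18, Hira beside Mrpl40, Ncapd2 beside Mrpl51 and Sars2 beside Mrps12. The neighbour fell in 3, Klc4 beside Mrpl2 (-2.01), Pnpla7 beside Mrpl41 (-2.49) and Gga3 beside Mrps7 (-0.62), and was not called in 7. Beside mitoribosomal genes that were not called, Eme1 (1.93, beside Mrpl27) and Psma2 (1.196, beside Mrpl32) rose and Fau (-1.14, beside Mrpl49) fell. Sars2 charges the transfer RNA for serine in mitochondria, and Tcp1 is a subunit of the cytosolic chaperonin.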
